A study of Mus musculus with 12 samples.

Results

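The genes described here encode the enzymes that cut the extracellular matrix and the inhibitors that hold those enzymes in check: the matrix metalloproteinases (Mmp), the tissue inhibitors of metalloproteinases (Timp), the disintegrin-like metalloproteinases with thrombospondin motifs (Adamts) and the related Adamtsl proteins, which lack a protease domain. They were chosen by symbol among protein-coding genes, which gave 51 of the 25514 genes counted, namely 23 Mmp, 4 Timp, 19 Adamts and 5 Adamtsl genes. RNA was sequenced from conditionally immortalized mouse proximal tubule (PT) cells with and without the type II receptor of TGF-β, and the design asked how loss of this receptor and a challenge with H2O2 changed expression. There were 12 libraries, 3 in each of 4 groups.

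Both genotypes carried the H2ts6 transgene of the Immorto-mouse, a heat-sensitive T antigen that lets cells grow at low temperature and is switched off before an experiment, and all PT cells came from male mice. TβRII flox/flox PT cells, called flox/flox cells below, held the floxed Tgfbr2 gene without Cre recombination. TβRII-/- PT cells, called TβRII-/- cells below, had lost the receptor through adenoviral Cre delivered in culture. Untreated cells stayed in complete medium, whereas treated cells received H2O2 in serum-free medium for 24 h, so that the oxidant and the loss of serum cannot be told apart. The methods of the study also give 24 h of serum starvation before stimulation, so the time without serum may have exceeded 24 h. The dose is 200 mM in the sample labels and 200 µM in the methods of the study. Each genotype is represented by 1 cell line as far as the labels say, so differences of genotype and of cell line cannot be told apart either, and p-values measure the spread between libraries, which may be technical.

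Mmp enzymes are made as inactive zymogens, some secreted and some anchored in the membrane, and need proteolytic removal of a prodomain. Mmp14, the main membrane-anchored collagenase, activates the secreted gelatinase Mmp2 in a complex that uses Timp2 as a bridge, while Timp1 to Timp3 block active enzymes and Timp3 also blocks aggrecanases of the Adamts family. In the kidney these proteins are known for remodelling of the tubular basement membrane and of the interstitial matrix, and several of their genes are known targets of TGF-β.

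Gene totals ranged from 15870144 to 20857609 counts per library, and the libraries of each group lay together on the first principal components. Tgfbr2 itself was still counted in every library, at 9248, 8369 and 7562 normalized counts in untreated flox/flox cells and 6782, 6675 and 6358 in untreated TβRII-/- cells. With H2O2 it read 13275, 13917 and 13707 normalized counts in flox/flox cells and 7221, 7312 and 7115 in TβRII-/- cells. This count covers the whole transcript and not the floxed exons alone, so it does not check the deletion. Of 12 proximal tubule markers, Lrp2, Aqp1, Pax8 and Cdh16 averaged between 4182 and 22998 normalized counts per group, whereas Slc34a1, Slc22a6 and Hnf4a, which define differentiated proximal tubule, averaged at most 0.671. The summed level of those 12 markers ranged from 39945 to 47864 normalized counts in untreated flox/flox cells and from 44079 to 48287 in untreated TβRII-/- cells. With H2O2 the sum ran from 51386 to 55655 in flox/flox cells and from 47586 to 48865 in TβRII-/- cells. Of the 12 markers 8 were tested, and between genotypes 5 were called lower and 1, Cdh16, higher in TβRII-/- cells in either medium, with a median log2 fold change of -0.67 untreated and -0.91 with H2O2. Of all genes tested, 26.6% were called between genotypes untreated and 29.4% with H2O2.

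Of the 51 genes, 25 passed the filter on low counts and were tested among 12971 genes: 10 Mmp, 3 Timp, 10 Adamts and 2 Adamtsl genes. Of these, Mmp9 and Mmp16 passed through the libraries of flox/flox cells only and Adamts2 and Mmp28 through those of TβRII-/- cells only. The filter itself thus favored a difference between genotypes in these 4, and their calls are no independent evidence. Values below are normalized counts, that is, counts scaled to a library of 17351823 counts. A gene was called when the Benjamini-Hochberg adjusted p of the quasi-likelihood test of edgeR over all genes was under 0.01 and the fold change at least 1.5, and log2 fold changes are those fitted by edgeR.

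Promoter windows of 300 bases around the RefSeq gene start were at hand for 36 of the 51 genes, 13 of them tested, and 5 are shown in part, those of Mmp14 and Adamts1 because both genes were highly expressed and fell, of Adamts2 because it rose most, and of Mmp15 and Timp1 because their response to H2O2 differed between genotypes. Each is the 250 bases upstream of the RefSeq gene start, 5′ to 3′ on the strand of the gene, on GRCm38.p6. Capitals mark every copy of GGGCGG, the GC box bound by Sp1-type factors, or its reverse complement CCGCCC and, in Adamts1, the TATA box TATAAA.
Mmp14, chr14:54431348-54431597, plus strand: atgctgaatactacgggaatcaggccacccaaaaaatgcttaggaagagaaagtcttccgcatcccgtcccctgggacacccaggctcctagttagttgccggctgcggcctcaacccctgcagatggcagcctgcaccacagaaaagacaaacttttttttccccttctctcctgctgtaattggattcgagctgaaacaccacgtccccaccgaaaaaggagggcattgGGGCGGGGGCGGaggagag
Mmp15, chr8:95352046-95352295, plus strand: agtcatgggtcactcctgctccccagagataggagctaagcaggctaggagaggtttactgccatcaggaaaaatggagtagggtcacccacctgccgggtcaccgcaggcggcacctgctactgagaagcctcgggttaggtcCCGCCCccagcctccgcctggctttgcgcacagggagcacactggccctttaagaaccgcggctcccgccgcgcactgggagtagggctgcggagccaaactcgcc
Timp1, chrX:20869916-20870165, plus strand: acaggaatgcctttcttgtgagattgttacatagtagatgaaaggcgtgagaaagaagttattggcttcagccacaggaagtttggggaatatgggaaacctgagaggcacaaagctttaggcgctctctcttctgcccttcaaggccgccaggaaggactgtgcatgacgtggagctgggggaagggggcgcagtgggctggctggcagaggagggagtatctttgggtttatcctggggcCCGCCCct
Adamts1, chr16:85803114-85803363, minus strand: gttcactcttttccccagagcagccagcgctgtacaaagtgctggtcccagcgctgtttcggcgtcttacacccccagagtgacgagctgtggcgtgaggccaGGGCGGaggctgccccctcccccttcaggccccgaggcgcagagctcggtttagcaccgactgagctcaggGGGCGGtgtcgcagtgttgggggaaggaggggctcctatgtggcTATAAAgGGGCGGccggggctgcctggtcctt
Adamts2, chr11:50601835-50602084, plus strand: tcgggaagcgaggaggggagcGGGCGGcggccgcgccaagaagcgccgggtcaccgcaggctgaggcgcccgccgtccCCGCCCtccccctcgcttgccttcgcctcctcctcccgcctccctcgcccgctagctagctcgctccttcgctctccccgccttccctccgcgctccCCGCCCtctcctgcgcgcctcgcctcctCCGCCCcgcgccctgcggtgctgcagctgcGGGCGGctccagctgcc

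Only the 250 upstream bases of each window were searched for motifs. GC boxes were present there in 12 of the 13 tested genes, all but Mmp23, and in 8 of the 23 untested ones. Of the 17492 protein-coding genes with such a window, expressed here or not, 45.8% held one there. The AP-1 site TGACTCA, sought on both strands together with its reverse complement TGAGTCA, was in none of the 13 tested genes, in 7 of the 23 untested ones, Mmp1a, Mmp1b, Mmp3, Mmp7, Mmp10, Mmp12 and Mmp13, and in 4.77% of all genes. The CAGACA box bound by Smad proteins, searched on both strands, was in 1 of 13, Adamtsl5, and 5 of 23, against 17.4% of all genes, and TATAAA in 1 of 13, Adamts1, and 9 of 23, against 13.7%. These are matches of letters within the 250 upstream bases and say nothing of sites elsewhere, the bases after the gene start included. Most genes called lower in untreated TβRII-/- cells had no window and were not searched. These were Mmp2, Mmp9, Mmp16, Adamts4, Adamts5, Adamts6, Adamts7, Adamts10 and Adamts16.

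Untreated TβRII-/- cells had less RNA of several matrix proteases, among them Mmp2, Mmp14, Adamts1, Adamts4 and Adamts5, and more of Adamts2, Adamts9 and Mmp28. Of the 25 tested genes, 16 were called between untreated genotypes, 4 higher and 12 lower in TβRII-/- cells, where 26.6% of all genes tested were called, 15.5% higher and 11.1% lower. Without the 4 genes that passed the filter through 1 genotype only, 12 of 21 were called, 2 higher and 10 lower. The median log2 fold change was -0.58 over the 25 genes and 0.01 over all genes. At adjusted p under 0.05 with no fold limit, 22 members and 64.7% of all genes passed. Among Mmp genes 4 fell and 1 rose, of the Timp genes 1 fell, 7 Adamts genes fell and 2 rose, and 1 Adamtsl gene rose. In bulk RNA fewer cells of a type and less RNA per cell cannot be told apart. The plot of counts by library shows 16 members that are not the same as the 16 called. It includes Mmp15, Timp2 and Timp3, which were not called untreated, and leaves out Adamts6, Adamts7 and Adamts10, which were.

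**Figure D1:**
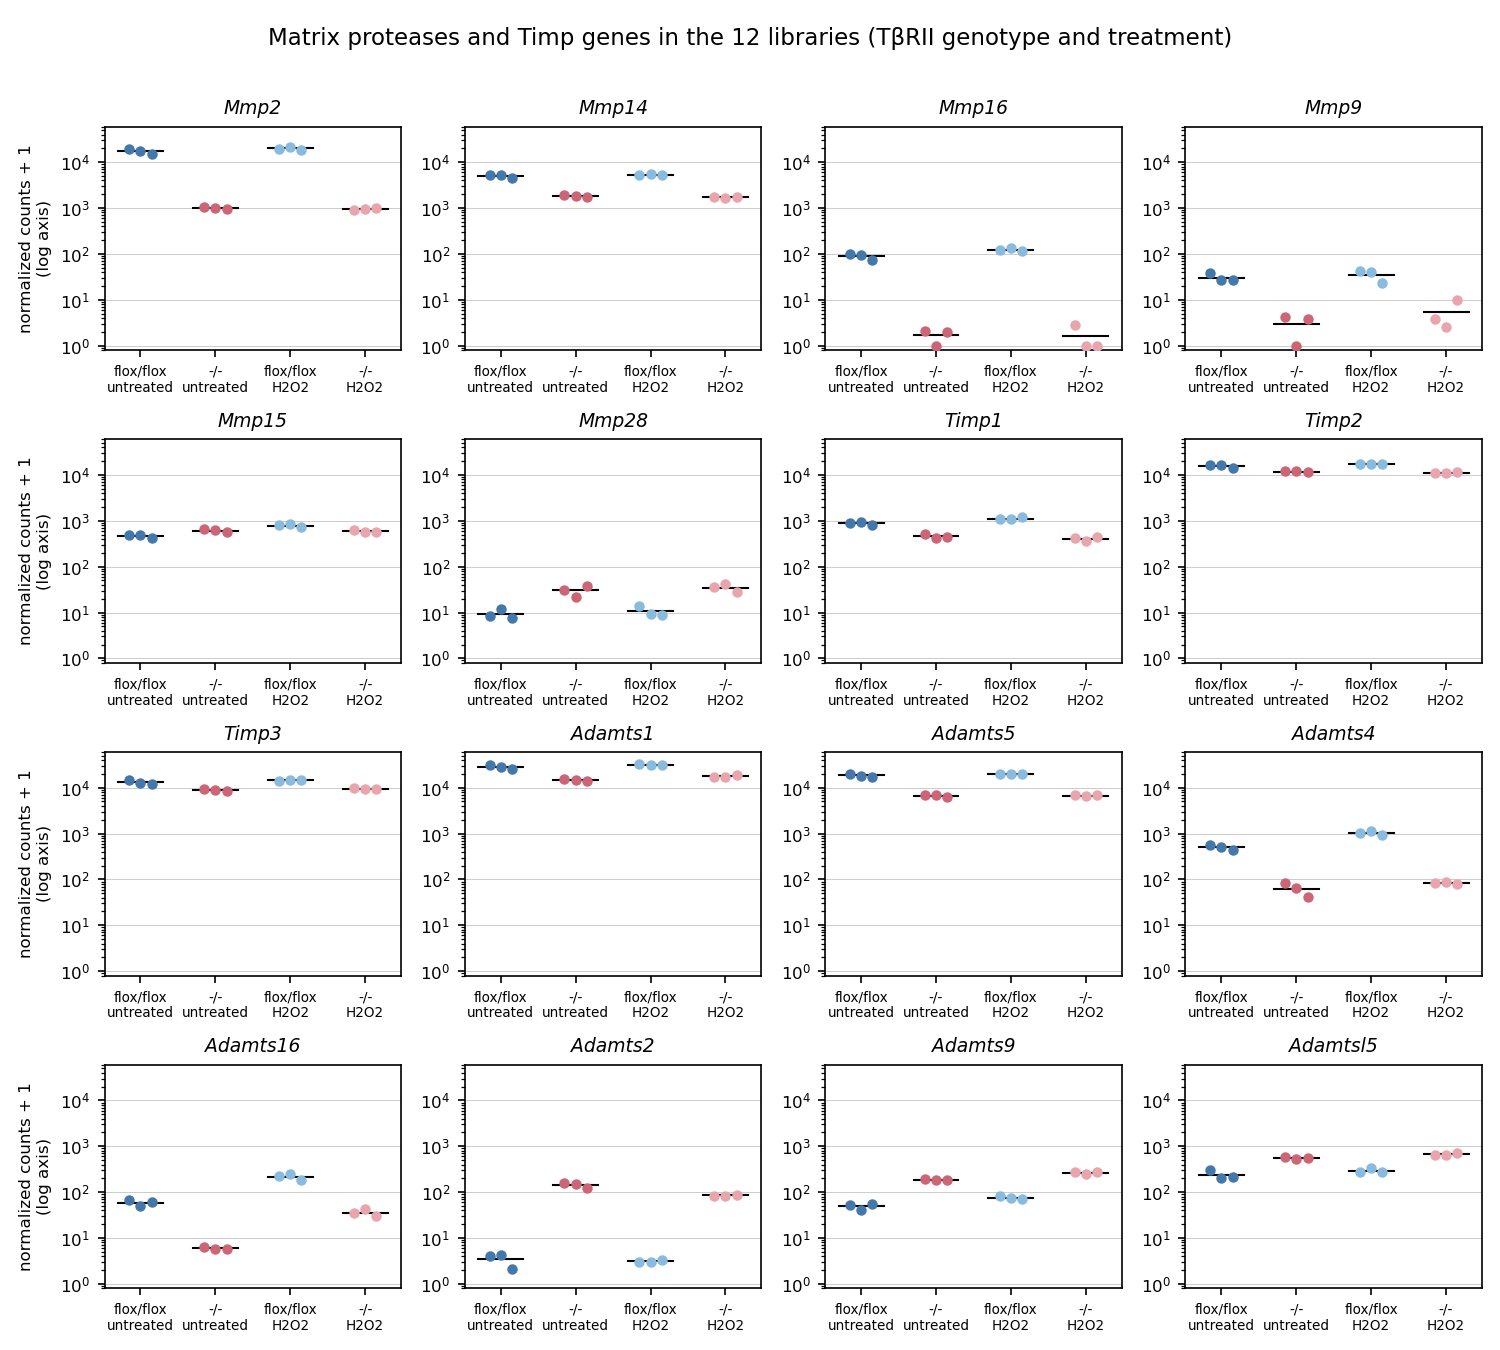
Normalized counts plus 1 on a log axis for 16 members in the 12 libraries, 1 point per library and a line at the mean of the 3 libraries of a group. Mmp2 lay between 15244 and 21480 normalized counts in flox/flox cells and between 904 and 1052 in TβRII-/- cells, and Adamts2 lay between 1.08 and 3.34 and between 81.0 and 158.

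The gelatinase Mmp2, which cleaves denatured collagen and type IV collagen, was the most abundant Mmp of flox/flox cells. It read 19310, 17946 and 15244 normalized counts in untreated flox/flox cells and 1052, 1026 and 938 in untreated TβRII-/- cells, 17.4-fold lower, a log2 fold change of -4.12 ± 0.09 (SE, edgeR adjusted p = 3.94e-28). Every flox/flox library was far above every TβRII-/- library. The gene lies at chr8:92827290-92853421 on GRCm38.p6, and Mmp14 at chr14:54431598-54442456. With H2O2 the separation was of the same kind, with 19850, 21480 and 18589 normalized counts against 904, 966 and 1025 and a log2 fold change of -4.37 ± 0.09 (edgeR adjusted p = 1.19e-28). In the annotation used for matching, a long noncoding gene on the opposite strand, Gm45472, shares 27.8% of the exon bases of this Mmp2 transcript, and reads of both strands cannot be told apart unless the counting used strand, a setting not given in the sources used here.

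Mmp14, the activator of Mmp2, fell as well. Its 3 untreated flox/flox libraries held 5324, 5278 and 4458 normalized counts and the 3 untreated TβRII-/- libraries 1877, 1811 and 1723, a log2 fold change of -1.48 ± 0.07 (edgeR adjusted p = 2.98e-19). The groups did not overlap, with H2O2 either, where the values were 5342, 5467 and 5135 against 1712, 1672 and 1776 normalized counts and the log2 fold change -1.63 ± 0.07 (edgeR adjusted p = 2.02e-20).

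Mmp16 and Mmp9 were low in flox/flox cells and close to absent in TβRII-/- cells. Mmp16, a second membrane-anchored enzyme, had 96, 83 and 67 raw counts in untreated flox/flox cells and 1, 0 and 1 in untreated TβRII-/- cells, a ratio of 134 after scaling with a 95% counting interval of 36.8 to 1115. With H2O2 its raw counts were 117, 131 and 98 against 2, 0 and 0, a ratio of 206 with an interval of 56.5 to 1705. Mmp9, a gelatinase like Mmp2, had 35, 23 and 24 raw counts against 3, 0 and 3 in untreated cells, a ratio of 14.9 with an interval of 6.57 to 41.8, and 40, 39 and 19 against 3, 2 and 9 with H2O2, 8.04-fold lower (edgeR adjusted p = 5.62e-07). Both genes were called in both comparisons of genotype, and the intervals are exact and cover counting error only.

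Against this direction, Mmp28, an epithelial Mmp also called epilysin, was higher in TβRII-/- cells. It read 7.36, 11.1 and 6.45 normalized counts in untreated flox/flox cells and 30.3, 21.3 and 36.4 in untreated TβRII-/- cells, a log2 fold change of 1.81 ± 0.36 (edgeR adjusted p = 5.52e-05). With H2O2 it read 13.2, 8.26 and 8.02 against 34.2, 40.1 and 26.8, a log2 fold change of 1.77 ± 0.33 (edgeR adjusted p = 2.29e-05). The groups stood apart in both media, at a level of at most 51 raw counts.

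Mmp11, Mmp19 and Mmp23 were tested and called in none of the 5 comparisons. Mmp11, known as stromelysin 3, averaged 477 ± 78.5 normalized counts (SD, n = 3) in untreated flox/flox cells and 333 ± 23.8 in untreated TβRII-/- cells, with 584 ± 25.6 and 425 ± 39.6 after H2O2. Mmp19 averaged 10.4 and 20.8 normalized counts in the untreated groups and 20.3 and 32.8 with H2O2, and is uncertain because 31.3% of its exon bases are shared with Tmem198b on the opposite strand, which averaged 360 normalized counts over all libraries. Mmp23 averaged 13.3 and 8.82 normalized counts untreated and 25.3 and 17.6 with H2O2. Mmp11 passed the p limit but not the fold limit between genotypes, untreated (-0.52, edgeR adjusted p = 2.52e-05) and with H2O2 (-0.46, edgeR adjusted p = 5.58e-05), without overlap of groups. Each of the 3 was called once when 1 library was left out. Mmp11 was called between untreated genotypes without replicate 3 of untreated flox/flox cells (-0.66), and Mmp19 without replicate 1 of that group (1.42 in place of 0.99, edgeR adjusted p = 0.00548). Mmp23 was called for H2O2 in TβRII-/- cells without replicate 2 of the untreated group (1.77 in place of 0.95, edgeR adjusted p = 0.00968).

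The fitted log2 fold changes of the 3 tested inhibitors lay between -0.41 and -0.93 in untreated cells. Timp1 read 902, 937 and 811 normalized counts in untreated flox/flox cells and 525, 430 and 439 in untreated TβRII-/- cells, a log2 fold change of -0.93 ± 0.08 (edgeR adjusted p = 1.97e-11). With H2O2 it read 1082, 1076 and 1200 against 429, 359 and 433, a log2 fold change of -1.46 ± 0.08 (edgeR adjusted p = 1.62e-16). Neither pair of groups overlapped. Timp1 lies at chrX:20870166-20874737, Timp2 at chr11:118301061-118355411 and Timp3 at chr10:86300412-86349505.

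Timp2, the bridge between Mmp14 and pro-Mmp2, was among the most abundant of the 51 genes. It read 16614, 16088 and 14271 normalized counts in untreated flox/flox cells and 12017, 12034 and 11305 in untreated TβRII-/- cells, a log2 fold change of -0.41 ± 0.06 that passed the p limit but not the fold limit (edgeR adjusted p = 1.72e-06). With H2O2 the values were 17013, 17476 and 17693 against 10917, 10894 and 11375, and Timp2 was called at a log2 fold change of -0.65 ± 0.06 (edgeR adjusted p = 1.70e-10). In both media every TβRII-/- library was below every flox/flox library.

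Timp3, which binds to the matrix, gave the same picture near the fold limit. It read 14523, 12904 and 11771 normalized counts against 9205, 8955 and 8592 in untreated cells, a log2 fold change of -0.55 ± 0.07 (edgeR adjusted p = 1.60e-08, not called). With H2O2 it read 14326, 14805 and 15049 against 9697, 9282 and 9583, a log2 fold change of -0.63 ± 0.07 (edgeR adjusted p = 8.70e-10, called). The untreated call depended on 1 library: without replicate 3 of untreated flox/flox cells the log2 fold change was also -0.63 and Timp3 was called. Timp1 and Timp3 lie within the synapsin genes Syn1 and Syn3 on the opposite strand. Syn3 averaged 61.8 normalized counts over all libraries against 11558 for Timp3, with which it shares 36.7% of the exon bases, and Syn1 had at most 4 raw counts. Timp4, which lies within Syn2, had 0 counts in every library.

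Levels of different genes are compared here only per length, as normalized counts per kb of transcript and per 1000000 counts. In untreated flox/flox cells the order was Adamts1 at 326, Mmp2 at 326, Timp2 at 241, Timp3 at 159, Mmp14 at 104, Adamts5 at 99.2 and Timp1 at 54.0 on this scale. Adamts1 and Mmp2 did not differ beyond their spread, nor did Mmp14 and Adamts5. In untreated TβRII-/- cells it was Timp2 at 181, Adamts1 at 171, Timp3 at 109, Mmp14 at 37.3, Adamts5 at 35.9, Timp1 at 28.4 and Mmp2 at 18.7. Here the ranges of Timp2 and Adamts1 over the libraries overlapped, as did those of Mmp14 and Adamts5. Pairs of genes were not compared within each library. The plot of levels per transcript length shows Mmp2 moving from the top of this order to below Timp1.

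**Figure D2:**
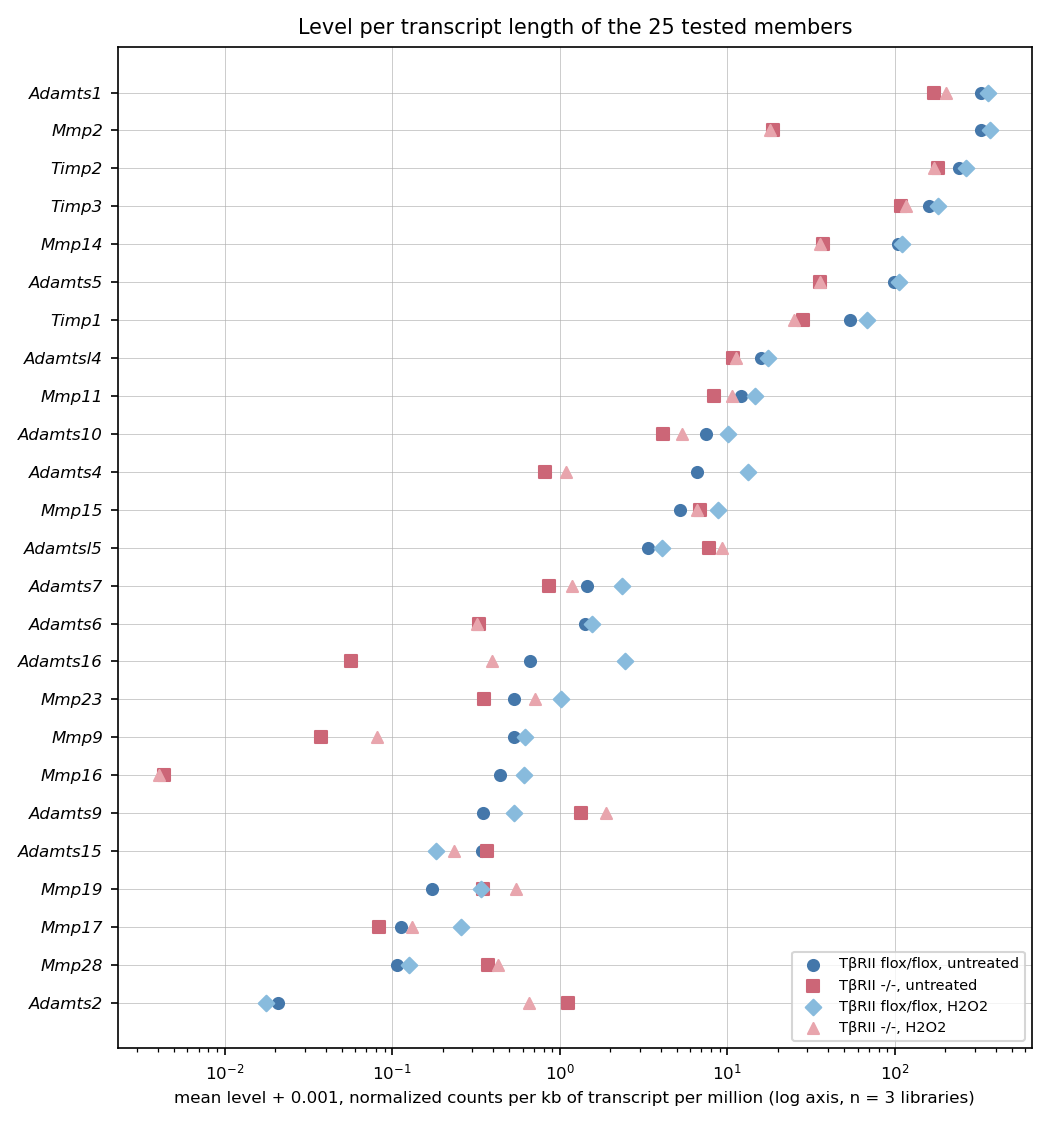
Mean level of the 25 tested members in the 4 groups, in normalized counts per kb of transcript per 1000000 counts, plus 0.001, on a log axis (n = 3 libraries per group, 1 marker shape and color per group). Mmp2 lies at 326 and 372 in flox/flox cells and at 18.7 and 18.0 in TβRII-/- cells, whereas Timp2 stays between 170 and 267.

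Summed over the family, Mmp levels per length were 491, 463 and 392 in untreated flox/flox cells and 76.2, 73.4 and 68.9 in untreated TβRII-/- cells. Mmp2 made up 72.6% ± 0.577 (SD, n = 3) of this sum in the former and 25.7% ± 0.345 in the latter, where Mmp14 was the largest share with 51.2% ± 0.420. The Timp sum was 488, 462 and 413 against 329, 321 and 306, and the Adamts sum 481, 445 and 405 against 228, 219 and 202, of which Adamts1 and Adamts5 made up 95.9% and 95.8%. All 3 sums were lower in every untreated TβRII-/- library than in any untreated flox/flox library.

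The ratio of Mmp2 to Timp2 per kb was 1.41, 1.35 and 1.29 in untreated flox/flox cells and 0.106, 0.103 and 0.100 in untreated TβRII-/- cells. The ratio of Mmp14 to Timp2 was 0.431, 0.441 and 0.420 against 0.210, 0.202 and 0.205. The ratio of summed Mmp and Adamts to summed Timp levels was 1.99, 1.96 and 1.93 against 0.924, 0.911 and 0.887 in untreated cells and 2.01, 2.03 and 1.82 against 1.02, 1.03 and 1.06 with H2O2. The ratios of RNA levels did not overlap between genotypes; they rest on levels already described and were not tested.

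Adamts1 and Adamts5, which cleave versican and aggrecan and are neighbors on chromosome 16 with 55.0 kb between them, were the most abundant Adamts genes. Adamts1 lies at chr16:85793827-85803113 and Adamts5 at chr16:85858157-85901125. Adamts1 read 30744, 28774 and 25844 normalized counts in untreated flox/flox cells and 15808, 15082 and 13953 in untreated TβRII-/- cells, a log2 fold change of -0.93 ± 0.07 (edgeR adjusted p = 4.23e-13). Adamts5 read 20272, 18149 and 17319 normalized counts against 6926, 6911 and 6317, a log2 fold change of -1.47 ± 0.07 (edgeR adjusted p = 7.23e-19). Both genes stood apart with H2O2 as well, Adamts1 at 32258, 31753 and 30510 against 17469, 17076 and 18551 and Adamts5 at 19532, 19911 and 20324 against 6778, 6437 and 6944 normalized counts. The log2 fold changes there were -0.83 ± 0.07 for Adamts1 and -1.57 ± 0.07 for Adamts5, with edgeR adjusted p of 5.14e-12 and 1.22e-19.

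Adamts4, another aggrecanase, at chr1:171250129-171262267, fell as well. It read 570, 496 and 439 normalized counts in untreated flox/flox cells and 82.6, 63.9 and 40.2 in untreated TβRII-/- cells, 8.12-fold lower, a log2 fold change of -3.02 ± 0.14 (edgeR adjusted p = 1.19e-18). With H2O2 it read 1007, 1118 and 912 against 83.1, 87.3 and 78.6, 12.2-fold lower (log2 fold change -3.60 ± 0.12, edgeR adjusted p = 2.55e-22).

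Adamts16 had the largest fall among Adamts genes in untreated cells, and Adamts4 with H2O2. Adamts16 read 67.3, 49.0 and 59.1 normalized counts in untreated flox/flox cells and 5.23, 4.84 and 4.79 in untreated TβRII-/- cells, a log2 fold change of -3.53 ± 0.32 (edgeR adjusted p = 1.69e-11). With H2O2 the counts rose in both genotypes and stayed apart, as given with the H2O2 comparisons. Adamts6 read 204, 175 and 185 normalized counts against 39.7, 50.3 and 42.1 untreated, a log2 fold change of -2.09 ± 0.16 (edgeR adjusted p = 3.15e-13), and 171, 217 and 238 against 41.5, 40.1 and 46.7 with H2O2. The transcripts with the highest totals of Adamts16 and Adamts6 are annotated as targets of nonsense-mediated decay, and the call of each was kept with the protein-coding transcript of highest total.

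Adamts10, which acts on fibrillin microfibrils, and Adamts7, which cleaves cartilage oligomeric matrix protein, fell by less. Adamts10 read 593, 537 and 477 normalized counts against 330, 276 and 292 in untreated cells, a log2 fold change of -0.84 ± 0.09 (edgeR adjusted p = 2.47e-09). Adamts7 read 157, 132 and 123 normalized counts against 75.3, 77.5 and 92.9, a log2 fold change of -0.74 ± 0.15 (edgeR adjusted p = 6.88e-05). With H2O2 Adamts10 read 700, 809 and 676 against 361, 384 and 424 normalized counts (-0.91 ± 0.09, edgeR adjusted p = 9.30e-11) and Adamts7 read 191, 260 and 219 against 122, 104 and 107 (-1.01 ± 0.13, edgeR adjusted p = 5.18e-08). Neither gene overlapped between genotypes in either medium.

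Adamts2 and Adamts9 rose. Adamts2, a procollagen N-proteinase that trims fibrillar procollagens, had 3, 3 and 1 raw counts in untreated flox/flox cells and 151, 154 and 127 in untreated TβRII-/- cells, a ratio of 56.5 with a 95% counting interval of 27.2 to 141. With H2O2 it had 2, 2 and 2 raw counts against 89, 103 and 88, a ratio of 39.2 with an interval of 17.8 to 108. Adamts9, which cleaves versican and aggrecan, read 52.6, 38.9 and 53.8 normalized counts against 192, 179 and 188 untreated, a log2 fold change of 1.94 ± 0.14 (edgeR adjusted p = 1.28e-13). With H2O2 Adamts9 read 81.2, 73.3 and 69.9 normalized counts against 269, 253 and 267, a log2 fold change of 1.81 ± 0.12 (edgeR adjusted p = 2.30e-14). Neither gene overlapped between genotypes.

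Of the Adamtsl genes, Adamtsl5 rose from 297, 204 and 213 normalized counts to 579, 515 and 567 in untreated cells, a log2 fold change of 1.22 ± 0.10 (edgeR adjusted p = 6.09e-12), and read 272, 328 and 273 against 647, 633 and 707 with H2O2. Its transcript of highest total is annotated with a retained intron. Adamtsl4, which binds fibrillin 1, read 1178, 1204 and 957 normalized counts against 789, 734 and 757 untreated, a log2 fold change of -0.55 ± 0.08 that missed the fold limit (edgeR adjusted p = 2.41e-07). With H2O2 it read 1263, 1272 and 1159 against 822, 712 and 838 and was called at a log2 fold change of -0.64 ± 0.08 (edgeR adjusted p = 8.05e-09). Without replicate 2 of H2O2-treated TβRII-/- cells that value was -0.57 and Adamtsl4 was not called, and without replicate 3 of untreated flox/flox cells the untreated value was -0.66 and it was called.

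Between genotypes after H2O2, 20 of the 25 genes were called, 4 higher and 16 lower in TβRII-/- cells, where 29.4% of all genes tested were called, 16.6% higher and 12.8% lower. Without the 4 genes that passed the filter through 1 genotype only, 16 of 21 were called, 2 higher and 14 lower. The median log2 fold change was -0.83 over the 25 genes and 0.02 over all genes. At adjusted p under 0.05 with no fold limit, 23 members and 66.4% of all genes passed. All 16 genes called between untreated genotypes were called again, each in the same direction. Of these 16, 12 are left without the 4 genes favored by the filter. The group means came from other libraries of the same cell lines. The filter, the normalization and the estimate of spread were shared by all 12 libraries, so the 2 comparisons are not independent. The other 4 genes called with H2O2 were Timp2, Timp3, Adamtsl4 and Mmp17. Mmp17, a membrane-anchored enzyme held by a lipid anchor, read 35.5, 28.9 and 21.8 normalized counts in H2O2-treated flox/flox cells and 17.5, 14.2 and 11.9 in H2O2-treated TβRII-/- cells, a log2 fold change of -0.98 ± 0.33 just inside the limit (edgeR adjusted p = 0.00985). Its call was lost without replicate 1 or 2 of H2O2-treated flox/flox cells and without any single library of H2O2-treated TβRII-/- cells, where edgeR adjusted p ranged from 0.0130 to 0.0592. It was also lost with DESeq2 (adjusted p = 0.0207), with the replicate number as a block (edgeR adjusted p = 0.0119), with no filter on low counts (edgeR adjusted p = 0.01004) and with counts summed over transcripts (edgeR adjusted p = 0.0842).

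**Figure D3:**
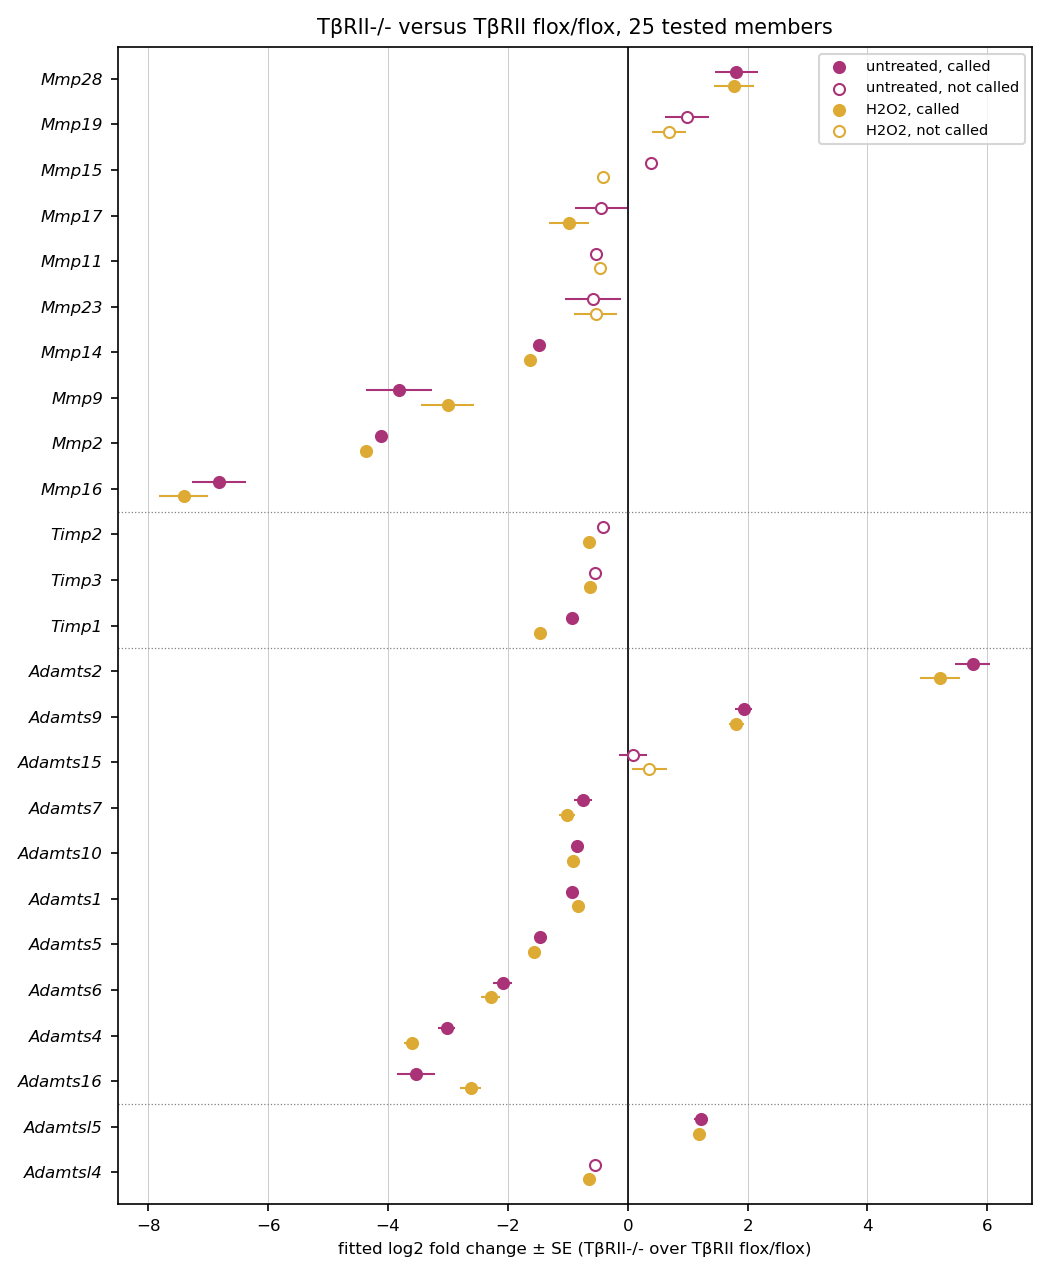
Fitted log2 fold change (± SE) of TβRII-/- over flox/flox cells for the 25 tested members, untreated in purple and with H2O2 in yellow, with filled points for called genes and open points for the rest and dotted lines between families. Of the 25 genes, 18 lie below 0 untreated and 19 with H2O2, from Mmp16 to Adamts2, whose fitted values depend on the prior count because 1 genotype has almost no counts.

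Markers of other states moved with genotype, where 26.6% of all genes tested were called untreated and 29.4% with H2O2. All 5 general epithelial markers were higher in untreated TβRII-/- cells, with Cdh1, which encodes E-cadherin, at a mean of 1.80 against 1111 normalized counts and Epcam at 0.371 against 664. Cdh1 and Epcam thus had almost no counts in untreated flox/flox cells. Markers that passed the filter on low counts through 1 genotype only were not set apart. The summed level of the 5 epithelial markers lay between 2664 and 3040 normalized counts in untreated flox/flox cells and between 10771 and 11079 in untreated TβRII-/- cells. With H2O2 it lay between 2154 and 2317 in flox/flox cells and between 8716 and 9241 in TβRII-/- cells. Of 6 fibroblast and pericyte markers, Lum was at 0 in all libraries, Pdgfra averaged below 3 normalized counts in every group, and the summed level ran from 53.8 to 67.3 in untreated flox/flox cells and from 16.5 to 29.3 in untreated TβRII-/- cells. With H2O2 that sum ran from 75.4 to 96.3 in flox/flox cells and from 40.6 to 50.7 in TβRII-/- cells. Of the 6 fibroblast and pericyte markers 3 were tested. Untreated, 2 of them were called lower in TβRII-/- cells, and with H2O2 2 were called lower and 1 higher. The leukocyte markers Adgre1 and Cd3e were at 0 in all libraries, and the sum of the 6 leukocyte markers, most of it Csf1r, lay between 906 and 1164 normalized counts throughout. Of the 6 leukocyte markers 2 were tested, and 1 was called untreated and 1 with H2O2, each higher in TβRII-/- cells. Of 4 endothelial markers only Kdr passed the filter on low counts, and the sum of the 4 ran from 127 to 138 in untreated flox/flox cells and from 464 to 586 in untreated TβRII-/- cells, with Kdr called higher. With H2O2 it ran from 22.7 to 26.4 in flox/flox cells and from 39.3 to 62.6 in TβRII-/- cells, and Kdr was called higher there too (log2 fold change 1.13). The podocyte marker Nphs1 was at 0 in all libraries. The part of these differences in the results on the proteases was not tested.

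H2O2 in serum-free medium moved fewer members, and mostly upward in flox/flox cells. There 7 of the 25 genes were called, 6 higher and 1 lower, where 6.71% of all genes tested were called, 4.43% higher and 2.27% lower, and the median log2 fold change was 0.29 over the 25 genes and 0.01 over all genes. In TβRII-/- cells 2 were called, 1 higher and 1 lower, where 6.92% of all genes were called, 3.66% higher and 3.26% lower, with a median of 0.21 over the 25 genes and 0.02 over all genes. With no fold limit and adjusted p under 0.05, 15 members and 41.6% of all genes passed in flox/flox cells and 9 members and 39.6% in TβRII-/- cells. A single gene, Adamts16, was called in both. The count of 7 fell to 4 without replicate 2 of untreated or without replicate 1 or 2 of H2O2-treated flox/flox cells.

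Adamts16 rose in flox/flox cells from 67.3, 49.0 and 59.1 to 224, 247 and 181 normalized counts, a log2 fold change of 1.89 ± 0.16 (edgeR adjusted p = 4.49e-11). It rose in TβRII-/- cells from 5.23, 4.84 and 4.79 to 34.2, 41.7 and 28.8 normalized counts, a log2 fold change of 2.80 ± 0.34 (edgeR adjusted p = 8.18e-08). No library of one treatment overlapped the other in either line, and the difference between the rises did not pass the interaction test (0.91 ± 0.42, edgeR adjusted p = 0.172). Treated TβRII-/- cells were below treated flox/flox cells, with a log2 fold change of -2.62 ± 0.17 (edgeR adjusted p = 5.43e-15).

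Adamts4 rose in flox/flox cells with a log2 fold change of 1.01 ± 0.10 (edgeR adjusted p = 8.72e-10), from the values between 439 and 570 to those between 912 and 1118 normalized counts given above. In TβRII-/- cells the log2 fold change was 0.43 ± 0.18 (edgeR adjusted p = 0.0609), with treated libraries between 78.6 and 87.3 and untreated ones between 40.2 and 82.6 normalized counts. The difference between these effects was -0.58 ± 0.21 (edgeR adjusted p = 0.0737), which passed the interaction limit without replicate 1 of untreated flox/flox cells (-0.71, edgeR adjusted p = 0.0144) and without replicate 3 of untreated TβRII-/- cells (-0.82, edgeR adjusted p = 0.00806). It also passed with the replicate number as a block (edgeR adjusted p = 0.0358) and with no filter on low counts (edgeR adjusted p = 0.0161). Without replicate 1 of untreated TβRII-/- cells the rise in TβRII-/- cells was called too (0.68, edgeR adjusted p = 0.00691).

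Adamts7, Adamts9 and Mmp17 also rose in flox/flox cells. Adamts7 went from 157, 132 and 123 to 191, 260 and 219 normalized counts, a log2 fold change of 0.70 ± 0.13 (edgeR adjusted p = 7.26e-05), and was not called without replicate 2 of H2O2-treated flox/flox cells (0.58). Adamts9 changed by 0.63 ± 0.17 on the log2 scale (edgeR adjusted p = 0.00287) and was not called without replicate 2 of untreated (0.50) or replicate 1 of treated flox/flox cells (0.57), or when only the groups compared were fitted (edgeR adjusted p = 0.0122). Mmp17 went from 18.9, 12.2 and 6.45 to 35.5, 28.9 and 21.8 normalized counts, a log2 fold change of 1.19 ± 0.35 (edgeR adjusted p = 0.0073). Its call was lost without replicate 2 or 3 of untreated and without replicate 1 or 2 of treated flox/flox cells, with edgeR adjusted p from 0.0226 to 0.0677, and also with DESeq2 (adjusted p = 0.0132) and with counts summed over transcripts (edgeR adjusted p = 0.0552).

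The same 3 genes were not called in TβRII-/- cells. Adamts7 had a log2 fold change of 0.43 ± 0.15 (edgeR adjusted p = 0.0226), Adamts9 of 0.50 ± 0.11 (edgeR adjusted p = 0.000392) and Mmp17, which went from 6.27, 7.75 and 13.4 to 17.5, 14.2 and 11.9 normalized counts, of 0.65 ± 0.41 (edgeR adjusted p = 0.212), none past both limits. None of the 3 differed between genotypes by the interaction test, with edgeR adjusted p of 0.457, 0.751 and 0.611.

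The falls were Adamts15 in flox/flox and Adamts2 in TβRII-/- cells. Adamts15, a proteoglycanase, went from 41.0, 32.3 and 34.4 to 17.2, 19.6 and 20.6 normalized counts in flox/flox cells, a log2 fold change of -0.91 ± 0.28 (edgeR adjusted p = 0.00867). Leaving out any single library of these 6 ended the Adamts15 call, with edgeR adjusted p from 0.0131 to 0.0442, as did DESeq2 (adjusted p = 0.0165), the replicate block (edgeR adjusted p = 0.0105) and counts summed over transcripts (edgeR adjusted p = 0.0366). In TβRII-/- cells it went from 39.7, 45.5 and 29.7 to 24.0, 29.1 and 19.9 normalized counts (-0.63 ± 0.25, edgeR adjusted p = 0.0411), and between genotypes it was not called. Adamts2 went from 158, 149 and 122 to 82.2, 81.0 and 87.5 normalized counts in TβRII-/- cells, a log2 fold change of -0.77 ± 0.15 (edgeR adjusted p = 0.000124), and was at 1 to 3 raw counts in flox/flox cells with and without H2O2.

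**Figure D4:**
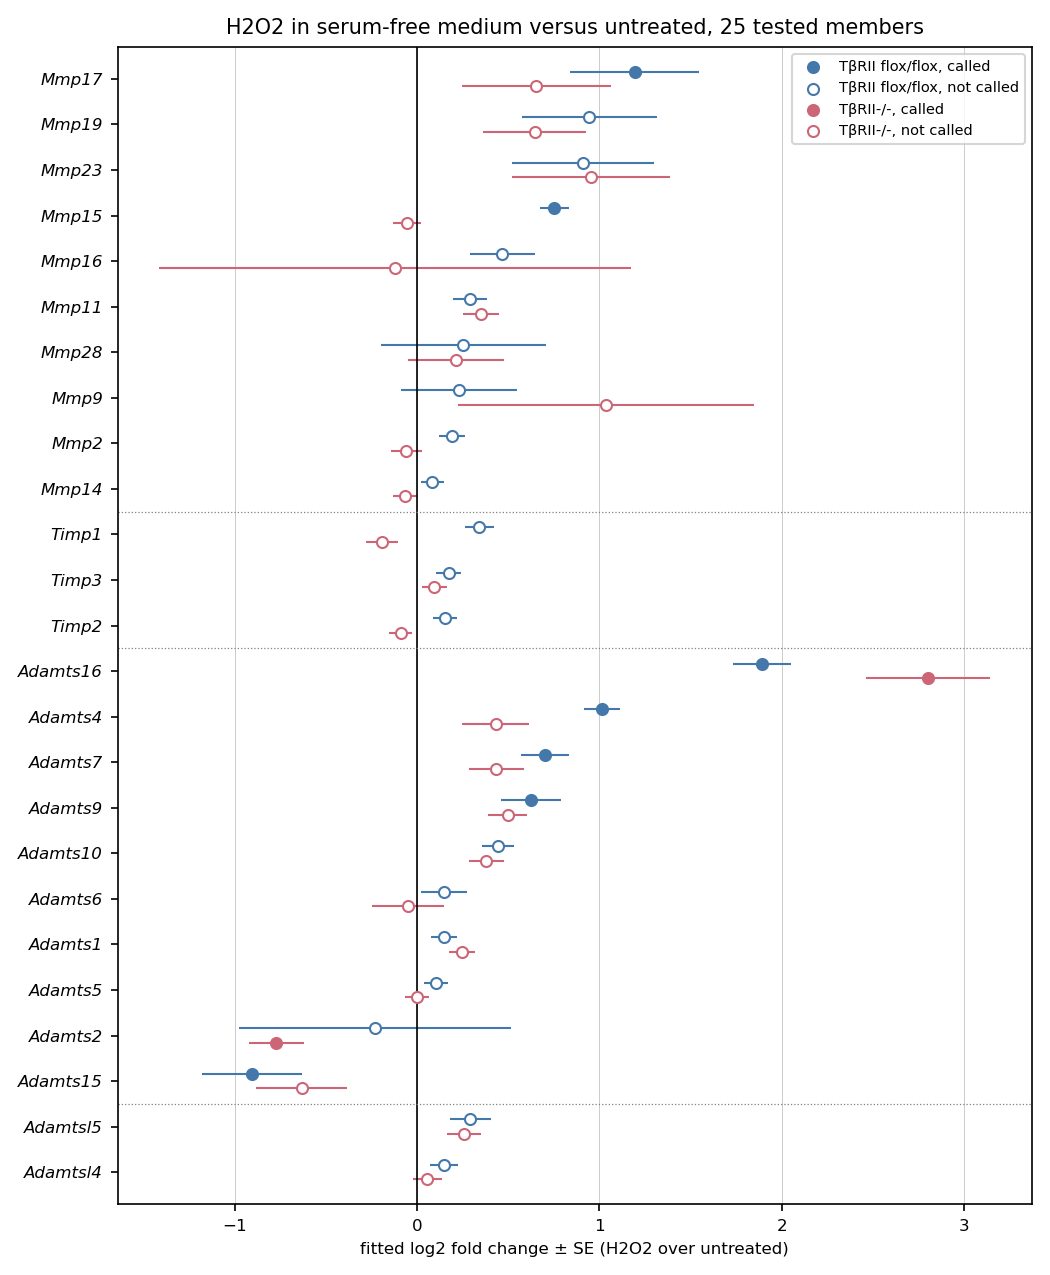
Fitted log2 fold change (± SE) of H2O2 in serum-free medium over untreated for the 25 tested members, flox/flox cells in blue and TβRII-/- cells in red, with filled points for called genes. In flox/flox cells 23 of the 25 genes lie above 0 and in TβRII-/- cells 16, and Adamts16 is the highest in both.

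The response to H2O2 differed between genotypes for Mmp15 and Timp1, 2 of the 25 genes, where 10.2% of all genes tested passed the interaction test, 3.90% with a higher and 6.28% with a lower effect in TβRII-/- cells, the direction of both members. Mmp15, a membrane-anchored enzyme related to Mmp14, read 488, 494 and 417 normalized counts in untreated and 791, 836 and 730 in H2O2-treated flox/flox cells, a log2 fold change of 0.75 ± 0.08 (edgeR adjusted p = 5.40e-09). Its TβRII-/- libraries read 654, 624 and 561 untreated and 628, 570 and 570 treated, a log2 fold change of -0.06 ± 0.08 (edgeR adjusted p = 0.598). The difference between these effects was -0.81 ± 0.11 (edgeR adjusted p = 8.27e-06). Mmp15 was higher in TβRII-/- cells untreated (0.39 ± 0.08, edgeR adjusted p = 9.13e-05) and lower with H2O2 (-0.42 ± 0.08, edgeR adjusted p = 1.78e-05), without overlap of groups and under the fold limit in both.

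Timp1 went in flox/flox cells from 902, 937 and 811 to 1082, 1076 and 1200 normalized counts, a log2 fold change of 0.34 ± 0.08 below the fold limit (edgeR adjusted p = 0.000708). It went in TβRII-/- cells from 525, 430 and 439 to 429, 359 and 433, a log2 fold change of -0.19 ± 0.09 with overlapping libraries (edgeR adjusted p = 0.0798). The difference was -0.53 ± 0.12 (edgeR adjusted p = 0.003). Without replicate 1 of untreated flox/flox cells, 5 members passed the interaction test in place of 2, the others being Adamts4, Timp2 and Mmp2. Timp2 passed with DESeq2 as well (adjusted p = 0.0192).

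The abundant genes had small fitted changes with H2O2. Mmp2 had a log2 fold change of 0.19 ± 0.07 in flox/flox and -0.06 ± 0.08 in TβRII-/- cells, Mmp14 of 0.08 ± 0.06 and -0.07 ± 0.07, and Adamts5 of 0.10 ± 0.07 and 0.00 ± 0.07. Adamts1 had 0.15 ± 0.07 and 0.24 ± 0.07, Timp2 0.15 ± 0.06 and -0.09 ± 0.06, and Timp3 0.17 ± 0.07 and 0.09 ± 0.07. None of these genes was called in either line.

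The other 26 genes failed the filter on low counts, and 6 of them, Mmp1a, Mmp1b, Mmp7, Mmp21, Timp4 and Adamts19, had no count in any library. A further 11, Mmp3, Mmp8, Mmp12, Mmp13, Mmp20, Adamts3, Adamts13, Adamts14, Adamts18, Adamts20 and Adamtsl2, had at most 3 counts in any library. The highest counts of the remaining 9 in any library were 14 for Mmp10 and Adamts12, 11 for Mmp24, 9 for Adamts17, 8 for Adamts8, 6 for Mmp27 and Adamtsl3, 5 for Mmp25 and 4 for Adamtsl1. All 10 members of the Mmp cluster on chromosome 9, which spans 427 kb from 7272514 to 7699585 on GRCm38.p6 and includes the collagenases Mmp8 and Mmp13 and the stromelysins Mmp3 and Mmp10, were among these 26, with at most 19 counts in any library for the whole cluster. None of the 26 was tested for a difference. Mmp10 had 0, 0 and 0 raw counts in untreated flox/flox cells and 3, 3 and 7 in untreated TβRII-/- cells, and 0, 1 and 0 against 8, 14 and 7 with H2O2. Adamts12 had 5, 6 and 2 raw counts against 0, 0 and 2 untreated and 9, 14 and 6 against 1, 0 and 0 with H2O2. By level after scaling to library size, the groups of both genes did not overlap in either medium. For untreated Adamts12 this rests on the scaling alone, as the closest libraries both had 2 raw counts, 2.15 against 1.91 normalized counts. How often other genes with few counts separate in this way was not counted.

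Genes that activate, take up or restrain these proteases differed as well. Of 23 such genes, 17 were tested and 12 were called between untreated genotypes, 7 higher and 5 lower in TβRII-/- cells, the median log2 fold change being 0.52, where 26.6% of all genes tested were called. With H2O2 11 were called, 5 higher and 6 lower, at a median of -0.16, where 29.4% of all genes were called, and 8 of the 17 passed the interaction test, 7 of them with a lower effect in TβRII-/- cells, where 10.2% of all genes passed. The proprotein convertases Furin and Pcsk6, which remove prodomains of proteins such as Mmp14 and the Adamts enzymes, were both lower. Furin read 6083, 5693 and 4645 normalized counts in untreated flox/flox cells and 3169, 2894 and 2921 in untreated TβRII-/- cells, a log2 fold change of -0.87 ± 0.07 (edgeR adjusted p = 3.58e-12). Pcsk6 read 480, 468 and 434 normalized counts against 36.6, 38.7 and 30.6, a log2 fold change of -3.70 ± 0.13 (edgeR adjusted p = 4.36e-22).

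**Figure D5:**
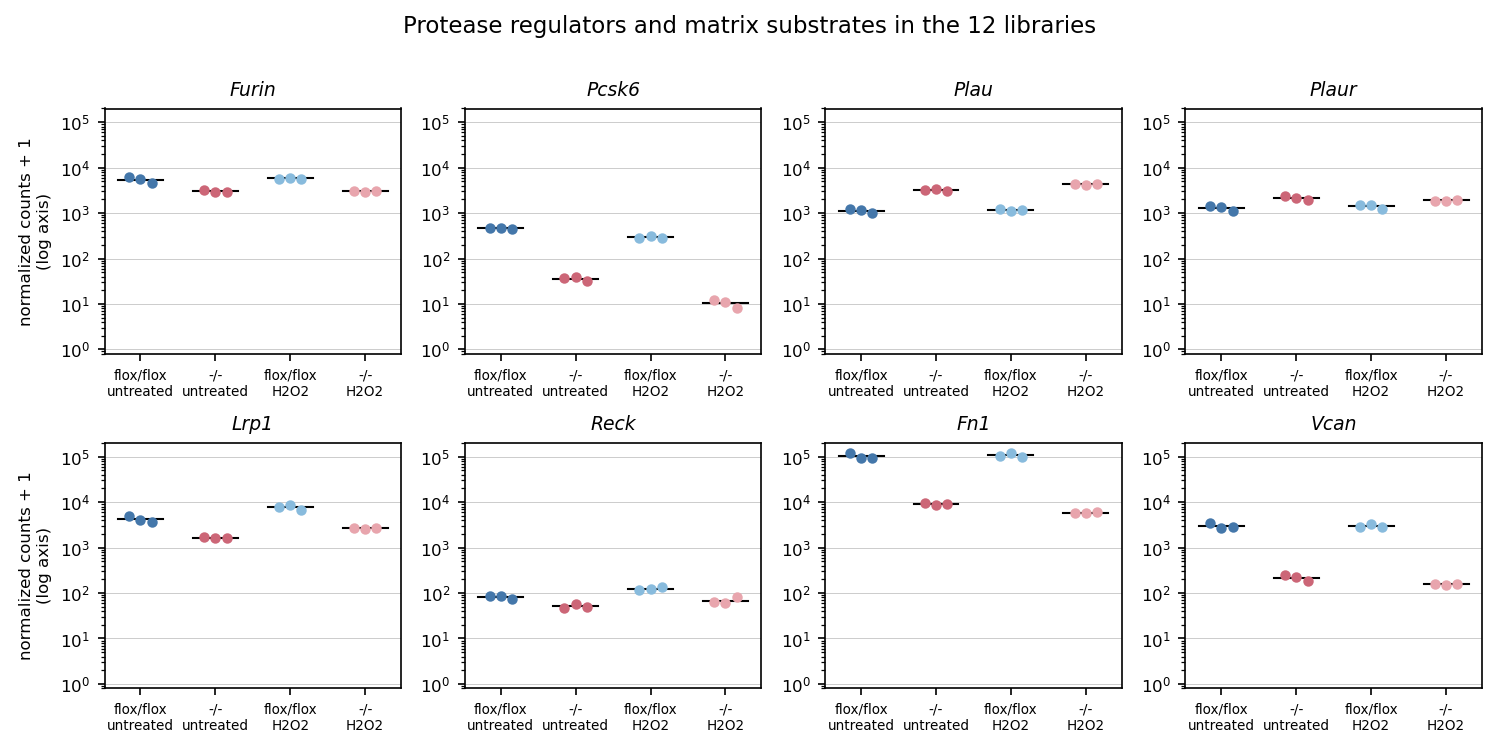
Normalized counts plus 1 on a log axis for 6 regulators and 2 substrates in the 12 libraries, 1 point per library and a line at the mean of the 3 libraries of a group. Plau averaged 1123 and 3246 normalized counts in untreated flox/flox and TβRII-/- cells, Plaur 1309 and 2171, and Vcan 3056 and 215.

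In the plasminogen activator system, which generates plasmin and thereby activates several Mmp zymogens, urokinase and its receptor were higher in untreated TβRII-/- cells. Plau, which encodes urokinase, read 1218, 1147 and 1003 normalized counts in untreated flox/flox cells against 3227, 3409 and 3101 in untreated TβRII-/- cells, a log2 fold change of 1.53 ± 0.07 (edgeR adjusted p = 1.66e-19). Its receptor Plaur read 1440, 1377 and 1111 against 2402, 2159 and 1953 normalized counts (0.73 ± 0.08, edgeR adjusted p = 4.11e-09), and with H2O2 it was not called, at 0.44 ± 0.08. Neither gene overlapped between the untreated genotypes.

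Serpine2, an inhibitor of urokinase, rose from a mean of 103 ± 26.4 (SD, n = 3) to 496 ± 62.8 normalized counts. The membrane serine protease St14, also called matriptase, averaged 317 ± 12.6 and 2430 ± 35.0 normalized counts, and its inhibitor Spint1 averaged 378 ± 25.8 and 1625 ± 82.4. Lrp1, the endocytic receptor that clears Mmp, Adamts and Timp proteins, fell from 4901, 4021 and 3682 to 1691, 1587 and 1623 normalized counts (log2 fold change -1.36 ± 0.08, edgeR adjusted p = 1.11e-15). Reck, a membrane inhibitor of Mmp enzymes, fell from 83.1, 86.8 and 72.1 to 46.0, 57.1 and 47.9 normalized counts (-0.68 ± 0.18, edgeR adjusted p = 0.00135).

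A further list of 28 genes held mostly related proteases, but also genes such as Hpse and Pcolce2 that do not encode proteases. Between untreated genotypes 26.6% of all genes were called, 15.5% higher and 11.1% lower. Of the 28 listed genes, 17 were tested and 12 called there, 4 higher and 8 lower, with a median log2 fold change of -0.50. With H2O2 12 were called, 3 higher and 9 lower (median -0.59), where 29.4% of all genes were called, 16.6% higher and 12.8% lower. Tll1, a tolloid-like procollagen C-proteinase, averaged 324 ± 53.8 and 11.9 ± 2.49 normalized counts in untreated flox/flox and TβRII-/- cells, and Adam12 averaged 271 ± 52.1 and 27.0 ± 9.86. Prss23 averaged 3621 ± 150 and 805 ± 9.20, and Pcolce2, an enhancer of procollagen C-proteinases, 137 ± 15.2 and 41.8 ± 7.42. Heparanase, encoded by Hpse, was higher, at 14.7 ± 6.44 and 173 ± 31.9 normalized counts, as was Adam8 at 101 ± 34.2 and 271 ± 1.69.

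Of 26 substrates, 14 were tested and 12 called, 2 higher and 10 lower in untreated TβRII-/- cells, with a median log2 fold change of -2.48, against the same 26.6% of all genes. With H2O2 all 14 were called, 3 higher and 11 lower (median -1.98), against 29.4%. Vcan, which encodes the versican cut by Adamts1, Adamts4, Adamts5 and Adamts9, read 3555, 2750 and 2863 normalized counts against 243, 219 and 185 in untreated cells (-3.83 ± 0.10, edgeR adjusted p = 7.19e-26). Fn1, which encodes fibronectin, read 122876, 94824 and 91293 normalized counts against 9684, 8793 and 9080 (-3.49 ± 0.10, edgeR adjusted p = 1.79e-24). Ltbp2 averaged 115 ± 24.3 and 9.87 ± 2.38 normalized counts and Ltbp1 1757 ± 250 and 175 ± 3.98. The 2 that rose were Tgfbi, at 3.91 ± 2.99 and 41.4 ± 6.42, and Fbn2, at 7.86 ± 3.24 and 71.4 ± 15.7 normalized counts.

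Of 18 transcription factors known to act on protease promoters, 17 were tested and 8 called, 4 in each direction, and their median log2 fold change was -0.19, against 26.6% of all genes called. With H2O2 9 were called, 5 higher and 4 lower, and the median had the other sign, 0.10, against 29.4%. The ETS factor Etv1 had no count in untreated flox/flox cells and averaged 11.5 ± 2.73 normalized counts in untreated TβRII-/- cells, and the related Etv4 averaged 205 ± 11.6 and 547 ± 30.8 and Etv5 77.8 ± 6.84 and 183 ± 5.85. Runx2, a known activator of Mmp13, averaged 208 ± 12.9 and 65.7 ± 13.5 normalized counts, Ets1 3650 ± 195 and 1910 ± 33.9, and Nfkb1 4458 ± 172 and 2340 ± 107. Of the AP-1 genes among these factors 1 was called, Fos, at 111 ± 5.91 and 71.6 ± 6.75, which is named here after its values were seen.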

How the data were processed

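Poly(A) RNA of 12 libraries was sequenced after TruSeq stranded mRNA preparation. The authors deposited counts: after adapter removal by fastp, STAR aligned the reads to the mouse genome (GRCm38.p6, GENCODE M23 annotation) and featureCounts counted them. The deposited counts are whole numbers per transcript, not per gene, and neither normalized nor pooled. Reads shared by transcripts were counted on each of them, so that the sum over transcripts was 3.20 to 3.32 times the gene totals used here. Each gene was therefore represented by its transcript with the highest total. Of 106332 transcripts, 104820 matched a gene symbol in a newer GENCODE annotation, and the others held 1.22% to 1.28% of the counts and were left out. Coordinates and promoter sequences are from RefSeq on GRCm38.p6.

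Counts were tested with edgeR 4.0.16 (R 4.3.3) by its quasi-likelihood test, with TMM normalization, its default filter on low counts over 4 groups, and 1 model for all 12 libraries. The design had assumed 1 count per gene. Adjusted p-values are Benjamini-Hochberg values over 12971 genes, the interaction limit was an adjusted p of 0.05 with no fold limit, and SE are of the log2 fold change. Gene totals of 15870144 to 20857609 counts per library set the precision. DESeq2 1.42.0, other filters, the replicate block and leaving out each library were alternatives, and the use of protein-coding transcripts alone was added after the data were seen. Script tests used simulated data with known changes. The members, the lists of related genes and the markers were chosen with earlier results of these data known. All members are named: those called and all tested Timp genes with values, other tested ones with group means, and the rest with their highest count. From each list the 6 called genes with the largest untreated log2 fold change between genotypes were named, and Furin, Reck, Plau, Plaur and Lrp1 in any case. Some genes of these lists are not reported here.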

Additional observations from a re-analysis of the deposited data

Results flagged for a closer look

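The effect of H2O2 in serum-free medium differed between genotypes for Mmp15 and Timp1 by the interaction test of edgeR. For Mmp15 the effect in TβRII-/- PT cells minus that in TβRII flox/flox PT cells was -0.81 on the log2 scale (edgeR adjusted p = 8.27e-06), since its counts were 1.69-fold higher with H2O2 in TβRII flox/flox PT cells and overlapped in TβRII-/- PT cells. For Timp1 the difference was -0.53 (edgeR adjusted p = 0.003). Both passed the interaction limit under all alternatives run.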

How the results depend on the processing

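Counts of members called between genotypes stayed within 1.5 times their values under all alternatives run, at 16 to 19 untreated and 18 to 20 with H2O2 when single libraries were left out. The H2O2 comparison in TβRII flox/flox PT cells gave 15 members without a fold limit at adjusted p under 0.05 and 4 to 6, in place of 7, without single libraries, the lowest without replicate 2 of the untreated or replicate 1 or 2 of the treated group. In TβRII-/- PT cells it gave 9 without a fold limit, 2 to 3 without single libraries, and 0 of 17 members when 10 counts were required in every library, a filter that removed both Adamts16 and Adamts2. Interaction counts ran from 2 to 5 without single libraries, the highest when replicate 1 of the untreated TβRII flox/flox group was dropped. With the replicate number as a block the counts were 16, 19, 6, 2 and 3 for the 5 comparisons; the numbers do not pair the libraries, with correlations of -0.102 to 0.0587 between same-numbered ones. DESeq2 gave 16, 19, 5, 2 and 3. Of 2056 values of single genes under an alternative, 1989 kept their call and direction, 29 lost the call, 38 gained it and 0 reversed. Members with few counts, 26 of 51, were not tested.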
